A study of Mus musculus with 12 samples.

Results

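L2, MIR and MLT repeats are remnants of transposable elements that spread in early mammals and have long stopped moving. They were described here by their DNA methylation in mouse pluripotent cells and germ cells. Members were taken by name and class alone: repeat features of class LINE/L2 (645 members), of class SINE/MIR (1121 members), and of class LTR/ERVL-MaLR with a name starting with MLT (646 members), each with a level in all 12 libraries. Together they made 2412 of the 133311 features, and of the 34707 repeat features, that had a level in the 12 libraries. A further 2018 members were listed in 1 to 11 libraries and were left out.

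The assay was RRBS, reduced representation bisulfite sequencing, in which MspI cuts the DNA at CCGG and bisulfite converts unmethylated cytosine, in 6 groups of 2 libraries, all labelled C57BL6. ESC were a female embryonic stem cell line and pESC a parthenogenetic one, derived from activated oocytes and thus carrying maternal genomes alone. According to the study both came from β-Actin-GFP mice. Primordial germ cells (PGCs), the precursors of the gametes, came from female embryos at E9.5 and E12.5 and were sorted by surface markers. ESC-PGCLC and pESC-PGCLC were PGC-like cells induced from each line by 2 days of bFGF and Activin A in KSR medium, which gives epiblast-like cells, and 4 days of BMP4, SCF, EGF and mLif, and were sorted as SSEA1 and CD61 double positive. Replicates of the ESC and pESC groups share a cell line label, so their spread may be smaller than that between lines.

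In mammals most CpG sites outside active regulatory DNA are methylated, and transposable elements are among the sequences that methylation keeps silent. Migrating and early gonadal PGCs lose most of this methylation, while some young, active retrotransposons keep more of it. L2 is an autonomous LINE, MIR is a short element that relied on L2 proteins and shares its 3′ end with L2, and MLT elements are the oldest long terminal repeats of the MaLR group. Copies of the 3 sets have diverged and lost many CpG sites to mutation.

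Each feature was an interval of the element's consensus, the reference sequence of the family. MIR3:16-146 thus means bases 16 to 146 of the MIR3 consensus, and neither a genome position nor a microRNA. Whether copies with the same interval were pooled into 1 value is not given in the sources used here. A level is methylated CpG calls over all CpG calls, averaged over the cells of the sample, and is given in percent. No read counts accompanied the levels, so the depth behind them is unknown.

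The files gave repeats no position, but 27 members (12 L2, 9 MIR, 6 MLT) had the same levels, to 10 decimals in the 12 libraries, as another feature. For 18 of them that feature was the shore of a CpG island, with coordinates. Where such a shore held a single MspI fragment of 40 to 300 bases, that fragment is a possible source of the calls. Longer fragments or fragments crossing the shore's edge could also contribute. Most of the 18 shores held 0 fragments of that size, for example that of MIR3:43-193 with 1 CCGG site, yet they had levels. The sequences below are such single fragments for a pair of L2 members that lost methylation between E9.5 and E12.5 and for a low L2 member. They are from the RefSeq assembly GRCm38, plus strand, with CpG sites in capitals.
L2a:3091-3403, chr11:98862522-98862624, in no GENCODE M21 gene: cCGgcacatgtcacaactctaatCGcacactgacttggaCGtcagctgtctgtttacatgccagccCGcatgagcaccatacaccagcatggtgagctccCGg
L2:2350-2861, chr17:27132631-27132739, in an intron of Uqcc2, minus strand gene: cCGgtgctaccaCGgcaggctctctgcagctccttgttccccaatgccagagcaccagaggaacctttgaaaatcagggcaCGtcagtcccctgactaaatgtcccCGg
L2b:3248-3374, chr6:83775338-83775398, in an intron of Tex261, minus strand gene: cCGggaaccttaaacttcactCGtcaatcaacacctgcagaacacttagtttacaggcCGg

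The fragment of L2a:3091-3403 holds 5 CpG sites, that of L2:2350-2861 holds 4, and that of L2b:3248-3374 holds 3, counting those of the cut sites. L2a:3091-3403 had 74.5% and 76.8% at E9.5, 43.4% and 46.4% at E12.5, 56.5% and 55.2% in ESC-PGCLC, 50.9% and 51.0% in pESC-PGCLC, 45.7% and 27.0% in ESC, and 43.1% and 33.8% in pESC. L2:2350-2861 had 65.1% and 62.3% at E9.5, 36.4% and 41.1% at E12.5, 51.3% and 49.7% in ESC-PGCLC, 45.8% and 45.5% in pESC-PGCLC, 50.2% and 26.1% in ESC, and 44.5% and 35.0% in pESC. Both members had their highest levels at E9.5 and a lower level in the second ESC library than in the first. L2b:3248-3374 stayed between 1.49% and 12.7% in the 12 libraries, with no group apart from the others.

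As a check of the labels, the promoter features of the imprinted genes Snrpn and Mest, methylated on the maternal allele, were read in the cell lines. Snrpn had 34.5% and 44.8% in ESC against 82.8% and 83.2% in pESC, and Mest 6.73% and 6.76% against 47.6% and 44.7%, so both were higher in the library pair labelled parthenogenetic. The number of listed members was lowest in ESC-PGCLC replicate 2 (2738) and highest in pESC replicate 1 (4154). The ESC libraries stood apart from each other: replicate 1 was the higher at 1882 of 2412 members (78.0%), with a mean absolute difference of 11.8 points. That difference was 6.21 points in pESC and between 4.29 and 5.18 points in the other 4 groups. Germ cell and cell type markers could not be checked, since methylation levels hold no expression.

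The 3 sets were highest at E9.5 and lower in each of the other groups. At E9.5 the mean over members was 59.95% ± 0.189 (SD, n = 2) for L2, 55.6% ± 0.252 for MIR and 64.4% ± 0.166 for MLT. At E12.5 it was 36.5% ± 0.237, 34.2% ± 0.353 and 40.2% ± 0.0612. ESC-PGCLC lay between these stages with 48.3% ± 0.0154, 44.3% ± 0.297 and 51.6% ± 0.171, and pESC-PGCLC lay below ESC-PGCLC with 43.6% ± 0.200, 40.2% ± 0.497 and 47.6% ± 0.244. The cell lines were near the E12.5 level, with 37.2% ± 7.21, 33.7% ± 6.58 and 41.4% ± 7.16 in ESC, and 36.3% ± 2.08, 33.0% ± 1.24 and 40.3% ± 1.34 in pESC.

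The order of the sets did not change between groups: MLT had the highest mean and MIR the lowest in the 12 libraries. Among members with a level in 11 libraries, which were left out, L2 was below MIR at E9.5 and E12.5. MLT exceeded L2 by 3.14 to 4.53 points and L2 exceeded MIR by 2.19 to 4.44 points, depending on the library. The step from MIR to L2 was smallest at E12.5, with a mean of 2.27 points, and largest at E9.5, with 4.40 points. Members that were low in each group were unequally spread over the sets: 92 MIR members (8.21%), 30 L2 members (4.65%) and 7 MLT members (1.08%) were under 10% in the 12 libraries. Among the 2283 members that reached 10% in at least 1 library the order held in the 12 libraries, with group means of the steps of 1.59 to 2.88 and 1.11 to 2.61 points. No test was made of set means, since 2 libraries against 2 cannot give an exact permutation p below 0.333.

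**Figure D1:**
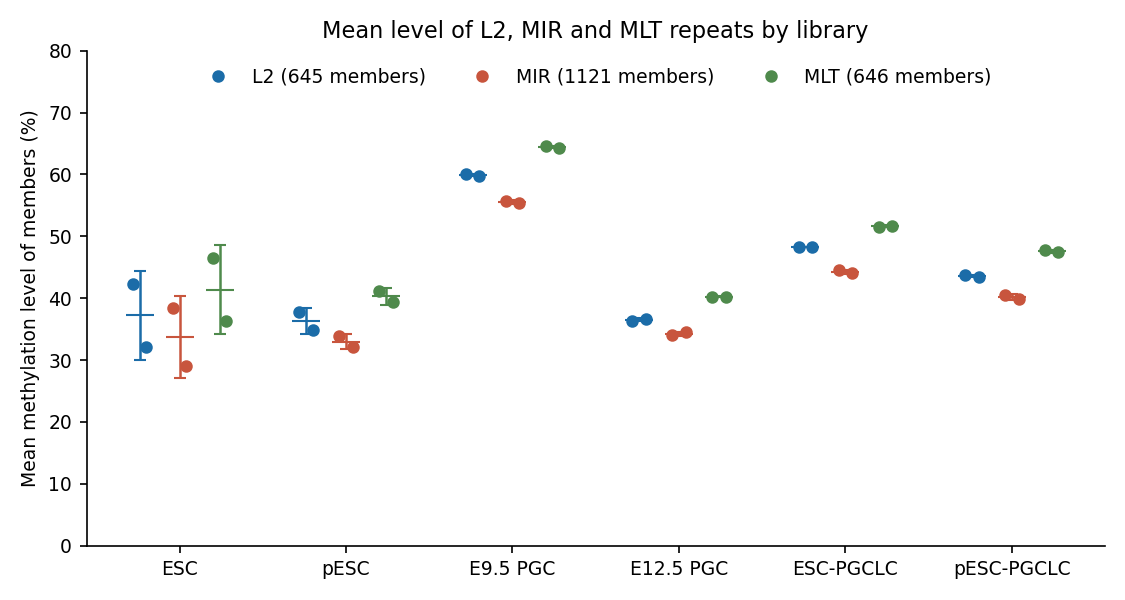
Mean methylation level in percent over the members of each set, by group; points are the 2 libraries, wide ticks the group mean and error bars the SD. E9.5 PGC stands highest in the 3 sets, MLT lies above L2 and L2 above MIR in each library, and the 2 ESC libraries lie about 10 points apart.

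The shift was one of whole distributions. At E9.5, 1739 members (72.1%) had at least 50% methylation and 429 (17.8%) at least 80%. At E12.5 these counts were 469 (19.4%) and 3 (0.124%). The share at 50% or more at E9.5 differed between sets, with 73.2% of L2, 64.0% of MIR and 85.1% of MLT, whereas at E12.5 the shares were 18.9%, 18.9% and 20.9%. In ESC, 229 MIR members (20.4%) were under 10%, compared with 101 L2 members (15.7%) and 41 MLT members (6.35%). At E9.5 the corresponding counts were 121, 41 and 8.

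**Figure D2:**
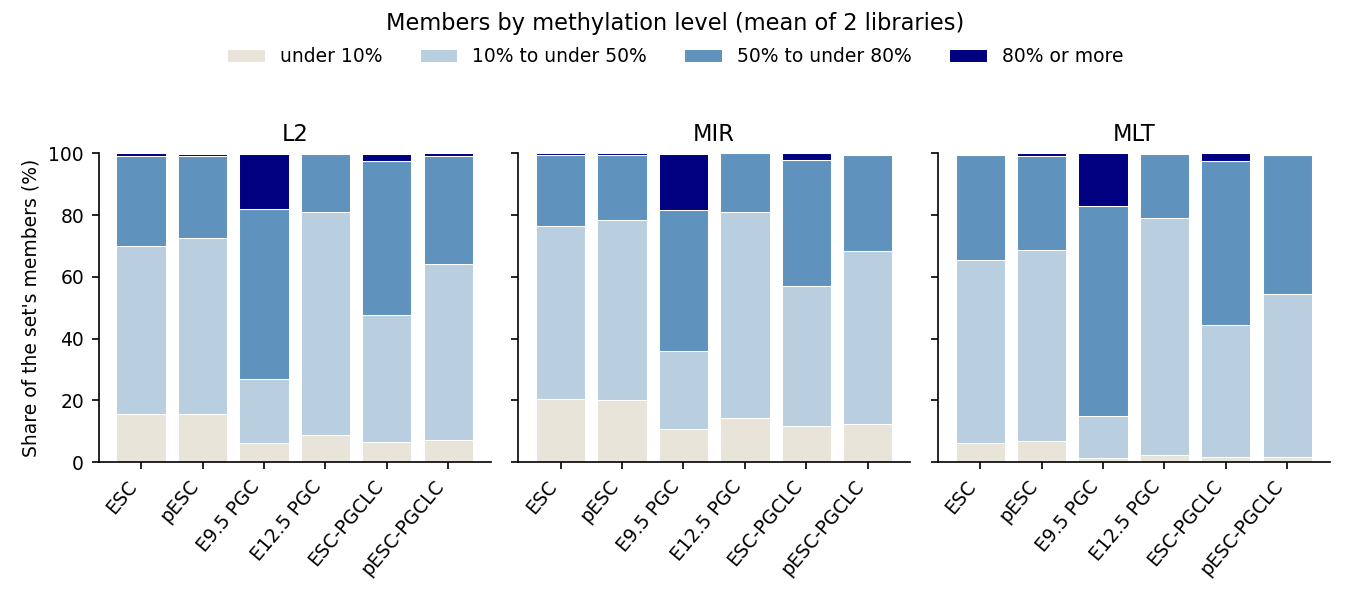
Share of each set's members, in percent, in 4 classes of methylation level (mean of the 2 libraries of a group). The darkest class, 80% or more, holds 17.8% of members at E9.5 and 0.124% at E12.5, and MLT has the smallest class under 10% in each group.

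Among names with at least 15 members, E9.5 means in L2 overlapped those in MIR and those in MLT, whereas MIR and MLT did not overlap. Among the 6 L2 names with at least 15 members, E9.5 means ran from 56.8% in L2b to 62.4% in L2. The 5 MIR names ran from 50.7% in MIR1_Amn to 57.7% in MIRb, and the 14 MLT names, which cover 491 of the 646 MLT members, from 59.2% in MLT1K to 70.9% in MLT1A. E12.5 means as a percentage of E9.5 means ran from 58.3 to 61.4 over the L2 names, from 59.3 to 62.6 over the MIR names and from 59.2 to 66.4 over the MLT names. The spread among members of 1 name was wider than that between these names, with an SD of 19.1 points in L2b and 18.9 points in MIRb for the mean over 12 libraries. Names with under 15 members reached further at E9.5, from 36.3% in L2-2_Mam (4 members) to 77.5% in MLT1J-int (1 member).

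Level varied somewhat with length in L2 and MIR. Members spanned 34 to 1062 bases of consensus in L2 (median 151), 17 to 262 in MIR (median 123) and 30 to 940 in MLT (median 258). The rank correlation of length with the mean level over 12 libraries was 0.0723 across 645 L2 members, 0.0885 across 1121 MIR members and 0.0199 across 646 MLT members, which share libraries and are not independent. With members split by length into 4 equal classes, the E9.5 mean went from the shortest to the longest class from 57.8% to 63.1% in L2, from 52.7% to 58.7% in MIR and from 64.0% to 65.2% in MLT, so the range over length in L2 and MIR was wider than the steps between set means. Of the 588 members named L2, L2a, L2b or L2c, 71.1% ended after consensus base 3000, toward the 3′ end, the part that truncated LINE copies keep. Their E9.5 mean was 60.04%, and that of the 170 members ending earlier was 61.2%. In MIR the E9.5 mean was 54.3% where the interval's midpoint lay in the first 100 bases and 59.3% where it lay beyond base 150.

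The highest members also lost methylation between the stages, whereas the lowest were near 0% at both. MIR3:81-137 had the highest mean over 12 libraries, 90.7%, with 98.3% and 97.1% at E9.5, 69.3% and 74.3% at E12.5, and between 91.2% and 98.2% in the other 8 libraries. L2:2695-2742 (mean 87.3%) had 96.3% and 99.1% at E9.5, against 79.6% and 79.8% at E12.5, and MLT1G1:423-579 (mean 84.5%) had 95.9% and 98.2% and then 54.5% and 61.3%. These 3 were near full methylation at E9.5 and did not reach it at E12.5. The 5 highest members of each set had means of 83.6% to 87.3% in L2, 80.8% to 90.7% in MIR and 77.4% to 84.5% in MLT. The 5 lowest had means of 0.269% to 0.914% in L2, 0.269% to 0.525% in MIR and 0.517% to 2.52% in MLT. A few members could not be told apart: L2c:3334-3369 and MIRb:227-261, the lowest member of each set, had equal levels in the 12 libraries, as did L2b:3309-3373 and L2d2:3365-3454, and L2d:3364-3422 and MIRb:188-260.

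The first comparison asked how PGCs changed between E9.5 and E12.5. Members were tested with limma on log odds of the level, fitted over all features, and called at an adjusted p under 0.05 with at least 10 points between the means of both groups. Of the 2412 members, 1920 were called lower at E12.5 and none higher: 528 of 645 L2 (81.9%), 832 of 1121 MIR (74.2%) and 560 of 646 MLT (86.7%). Over all features tested 49.6% were called lower, and over all repeat features 84.8%. The median change was −23.2 points in L2, −21.3 in MIR and −23.9 in MLT, beside −11.5 points over all features and −19.5 over all repeat features. When each library was centred on its median feature, 749 members were called lower and 102 higher.

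The loss was close to proportional, except in members under 10% at E9.5. The E12.5 mean was 60.9% of the E9.5 mean in L2 (60.5% to 61.3% over pairs of libraries), 61.6% in MIR (61.0% to 62.3%) and 62.4% in MLT (62.2% to 62.6%). The same value was 64.9% in the other MaLR elements (1901 features), 63.02% in L1MA to L1ME, old LINE-1 families (462), 62.1% in DNA transposons (870), 78.3% in IAPLTR, the repeats of a young active retrovirus-like family (146), and 69.0% over all repeat features. Grouped by their E9.5 level, the 119 members at 10% to 30% had an E12.5 mean that was 62.1% of the E9.5 mean. The value was 64.3% for the 384 at 30% to 50%, 61.3% for the 859 at 50% to 70%, 60.8% for the 704 at 70% to 90%, and 61.5% for the 176 at 90% or more. These classes were formed on the same E9.5 levels that enter the ratio. The 170 members under 10% at E9.5 had a mean of 4.18% at E9.5 and 3.74% at E12.5, and between 3.94% and 4.25% in the other 4 groups.

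**Figure D3:**
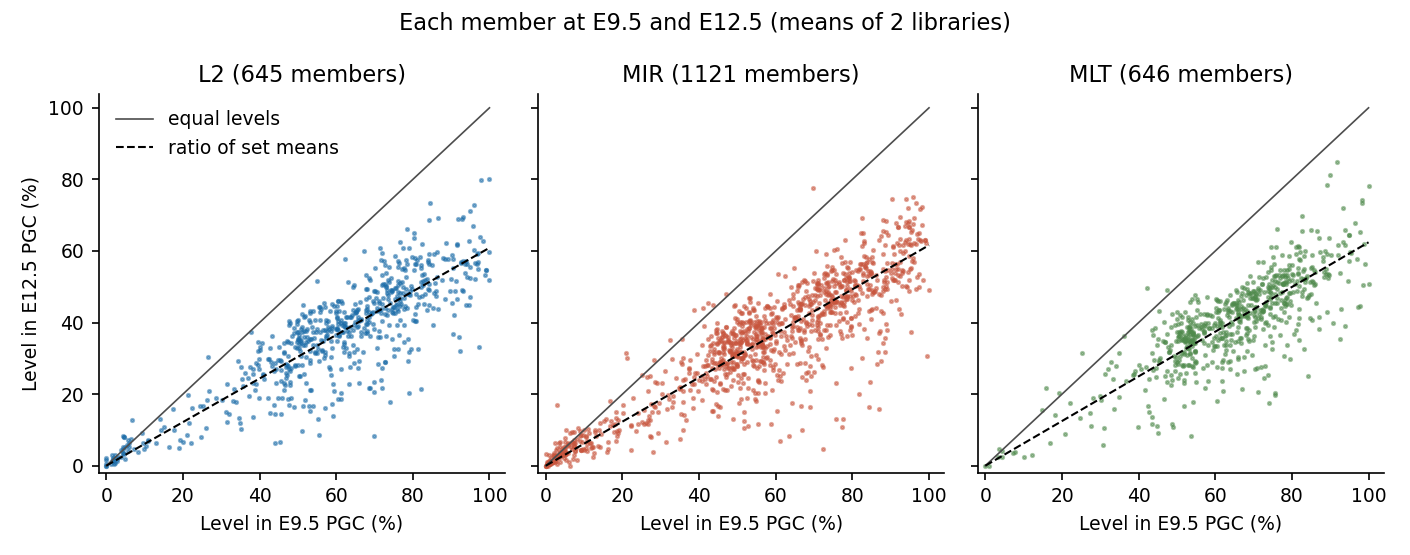
Each point is 1 member, with its methylation level in percent at E9.5 on the horizontal and at E12.5 on the vertical axis (means of 2 libraries). The dashed line has the slope of the ratio of set means, 60.9% for L2, 61.6% for MIR and 62.4% for MLT, and most points lie below the solid line of equal levels.

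The 3 largest losses were in MIR members. MIR3:16-146 had 86.9% and 71.2% in ESC, 73.7% and 65.9% in pESC, 87.8% and 86.2% at E9.5, 15.4% and 16.6% at E12.5, 74.5% and 76.5% in ESC-PGCLC, and 63.9% and 65.5% in pESC-PGCLC. Only the E12.5 libraries were low, and they fell by 71.0 points from E9.5 (log2 odds −4.98 ± 0.120 SE, adjusted p = 7.47e-05). MIR1_Amn:118-155 had 98.8% and 100% at E9.5, against 29.6% and 31.6% at E12.5 (difference −68.8 points, adjusted p = 7.54e-05). MIRb:115-197 had 81.4% and 87.1% and then 14.5% and 18.3% (difference −67.9 points, adjusted p = 8.51e-05). These 3 calls held in each of the 10 alternative analyses. At the level of the whole list, 40 of the 1739 members with at least 50% at E9.5 retained under 30% of that level at E12.5 (12 L2, 21 MIR, 7 MLT).

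The next comparisons asked where the induced cells stood between the PGC stages. Relative to E9.5, 1207 members were called lower in ESC-PGCLC and 5 higher, where 29.6% of all features and 41.1% of repeat features were called lower. The lower calls were 325 L2 (50.4%), 523 MIR (46.7%) and 359 MLT (55.6%). In pESC-PGCLC 1569 were lower and 2 higher than at E9.5, with 433 L2 (67.1%), 672 MIR (59.9%) and 464 MLT (71.8%), against 40.2% of all features and 62.6% of repeat features. After centring on the library medians the counts were 259 lower and 80 higher in ESC-PGCLC, and 475 lower and 82 higher in pESC-PGCLC. The comparisons share the E9.5 libraries.

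MLT1C:492-548 showed the largest fall in ESC-PGCLC. It had 100% and 96.6% at E9.5, 70.6% and 77.8% at E12.5, 14.3% and 21.1% in ESC-PGCLC, and 64.0% and 80.8% in pESC-PGCLC, so ESC-PGCLC lay 80.6 points below E9.5 (adjusted p = 0.00111) and 56.5 points below E12.5 (adjusted p = 0.0143). The 2 ESC-PGCLC libraries were the only ones under 30%, and the call against E12.5 was lost in 3 of 10 alternatives. MLT1A0:66-343 had 100% and 94.5% at E9.5, 47.1% and 41.4% at E12.5, 20% in both ESC-PGCLC libraries, and 24.2% and 20.8% in pESC-PGCLC, a difference from E9.5 of −77.3 points (adjusted p = 0.00145) in ESC-PGCLC and −74.7 points (adjusted p = 0.000834) in pESC-PGCLC. L2a:3281-3362 had 95.2% and 88.9% at E9.5 and between 28.3% and 40% in the 4 PGCLC libraries, with differences of −61.0 points (adjusted p = 0.000863) and −55.1 points (adjusted p = 0.000414). MLT1A0:66-343 and L2a:3281-3362 were also low in the parent lines, where they read 8.76% to 17.0% and 13.7% to 25.7%. The third largest fall in pESC-PGCLC, MIRc:88-167 at −53.8 points, rested on libraries at 30.2% and 0% and its call was lost in 5 of 10 alternatives.

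Rises over E9.5 were few. L2b:3276-3426 had 74.2% and 82.4% at E9.5 and 100% in both ESC-PGCLC libraries, a difference of 21.7 points (adjusted p = 0.00115). MIR:47-248 had 43.8% and 45.5% against 61.5% and 66.7% (19.4 points, adjusted p = 0.00291), and MIR1_Amn:60-178 had 37.8% and 16.7% against 62.2% and 60% (33.9 points, adjusted p = 0.0232). Each of these lost its call in 1 to 3 alternatives. In pESC-PGCLC the rises were L2b:3316-3353, with 4.40% and 9.09% at E9.5 against 23.1% and 17.5% (13.5 points, adjusted p = 0.0117), and MLT1D:8-204, with 29.2% and 25.3% against 39.5% and 36.9% (10.9 points, adjusted p = 0.0104). In both, the parent pESC libraries were higher still, at 40.7% and 41.2% for L2b:3316-3353 and 52.3% and 44.5% for MLT1D:8-204. The call of L2b:3316-3353 was lost in 1 of 10 alternatives and that of MLT1D:8-204 in 3.

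Relative to E12.5, 976 members were called higher in ESC-PGCLC and 14 lower, where 22.2% of all features and 39.0% of repeat features were called higher. The higher calls were 291 L2 (45.1%), 399 MIR (35.6%) and 286 MLT (44.3%). After centring on the library medians 281 were higher and 26 lower, and when the 12 libraries shared a fit 398 were higher and 9 lower. In pESC-PGCLC 351 were higher and 7 lower, with 116 L2 (17.98%), 128 MIR (11.4%) and 107 MLT (16.6%), against 6.81% of all features and 12% of repeat features. The second count changed most with the libraries: of 358 calls, 50 were left without E12.5 replicate 1, 90 without E12.5 replicate 2, 1 without pESC-PGCLC replicate 1 and 25 without pESC-PGCLC replicate 2, and 42 when the 12 libraries shared a fit. The mean difference itself, 6.64 points, exceeded the replicate SD of 0.289 points, and the nearest libraries lay 6.24 points apart. It was 4.205 points in the 767 members with replicates within 10 points. Those include the 129 members under 10% in the 12 libraries, which have little room to differ between groups. By group means, 2015 members (83.5%) lay between E12.5 and E9.5 in ESC-PGCLC, and 1936 (80.3%) in pESC-PGCLC. The mean over all repeat features lay between the stages too, with 54.4% in ESC-PGCLC and 50.7% in pESC-PGCLC against 44.9% at E12.5 and 65.1% at E9.5.

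Ranking by the excess over E12.5 favours members that are low at E12.5, and the ones named here were also high at E9.5. MIR:139-254 had 77.3% in both E9.5 libraries, 10.8% and 10.9% at E12.5, 73.4% and 74.2% in ESC-PGCLC, and 49.6% and 47.7% in pESC-PGCLC. Its E12.5 libraries were below the other 10, and the excess was 62.9 points (adjusted p = 0.000218) in ESC-PGCLC and 37.8 points (adjusted p = 0.00284) in pESC-PGCLC. MIR3:16-146, described above, exceeded E12.5 by 59.5 points (adjusted p = 0.000677) and 48.7 points (adjusted p = 0.00339). L2a:3353-3396 had 32.5% and 31.7% at E12.5 against 82.1% and 84.8% in ESC-PGCLC (51.4 points, adjusted p = 0.00119). MIR3:105-187 had 5.47% and 3.91% at E12.5 against 36.8% and 42.3% in pESC-PGCLC (34.9 points, adjusted p = 0.00558).

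A smaller number of members were lower in the induced cells than at E12.5. MIR:21-187 had 47.2% and 41.7% at E12.5 against 9.62% and 14.3% in ESC-PGCLC (−32.5 points, adjusted p = 0.00378), and MIRb:57-141 had 58.1% and 51.8% against 27.9% and 23.4% (−29.3 points, adjusted p = 0.00446). In pESC-PGCLC MLT1E3:169-613 had 20.6% and 20.8% against 39.4% and 43.3% (−20.6 points, adjusted p = 0.0146), L2b:2920-3077 had 27.9% and 22.7% against 50% and 42.3% (−20.9 points, adjusted p = 0.0363), and MIR:21-187 had 25% and 22.9% (−20.5 points, adjusted p = 0.0461). The call of MLT1E3:169-613 was lost in 4 of 10 alternatives and the last 2 calls in 7 each. In these 4 members the parent lines were also low, between 6.66% and 29.1%. This did not hold for MLT1C:492-548, described above, which fell further below E12.5 in ESC-PGCLC. Its ESC libraries read 50.6% and 40.7%.

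**Figure D4:**
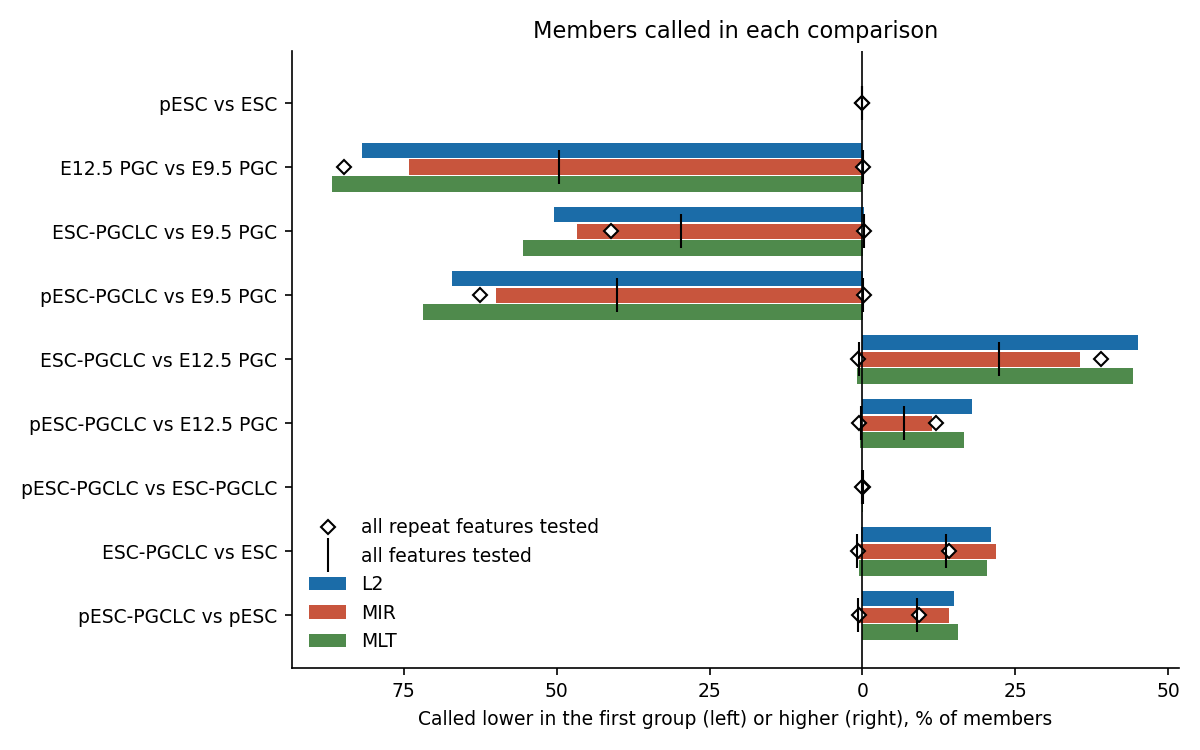
Percent of each set's members called in 9 comparisons, to the left when lower and to the right when higher in the first group named; diamonds give all repeat features and vertical ticks all features tested. Of the MLT members 86.7% were called lower at E12.5 than at E9.5, whereas no member was called between pESC and ESC.

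PGCLCs from the 2 origins were then compared. The mean over members was 4.25 points lower in pESC-PGCLC than in ESC-PGCLC, with a replicate SD of 0.257 points and 3.93 points between the nearest libraries, and 1956 of 2412 members (81.1%) had the lower group mean in pESC-PGCLC. The difference was −4.74 points in L2, −4.08 in MIR and −4.04 in MLT. It was −3.72 over all repeat features, −4.40 in the other MaLR elements and −2.14 over all features, so it was not particular to these sets. Single members seldom passed: 3 were called, against 0.0948% of all features and 0.134% of repeat features. MIR:139-254 was 25.1 points lower in pESC-PGCLC (adjusted p = 0.0134), L2b:3276-3426 had 60.6% and 81.8% against 100% in both ESC-PGCLC libraries (−28.8 points, adjusted p = 0.0446), and MLT1B:165-388 had 33.3% and 30% against 0% in both (31.7 points, adjusted p = 0.0156). These calls were lost in 5 to 8 of 10 alternatives. The count was 55 with an offset of 0.1 and 79 on untransformed levels, and 18 without ESC-PGCLC replicate 1, 0 without pESC-PGCLC replicate 1 and 1 without pESC-PGCLC replicate 2.

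Between the cell lines the difference in the mean was −0.887 points for pESC against ESC, less than the replicate SD of 4.99 points, and the libraries overlapped in each set. No member was called by limma, as 0 of all features (0%) were. At an unadjusted p under 0.05 there were 35 members (10 L2, 20 MIR, 5 MLT; 1.45%), beside 1.39% of all features. Without pESC replicate 1 there were 8 calls, 3 higher and 5 lower in pESC. The members with the smallest p were all low. L2d2:3369-3438 had 2.90% and 9.23% in ESC and 0% in both pESC libraries, MIR3:90-166 had 0% in both ESC libraries and 1.89% and 4.17% in pESC, and MLT1E1A:546-627 had 1.85% and 2.08% in ESC and 0% in pESC, each with an adjusted p of 1.

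The last comparisons asked what changed when a line was induced. ESC-PGCLC had 513 members called higher than ESC and 13 lower, namely 136 L2 (21.1%), 245 MIR (21.9%) and 132 MLT (20.4%) higher, where 13.7% of all features and 14.2% of repeat features were higher. pESC-PGCLC had 357 members higher and 7 lower than pESC, with 97 L2 (15.04%), 159 MIR (14.2%) and 101 MLT (15.6%) higher, where 8.91% of all features and 9.21% of repeat features were higher. These directions depended on centring. On untransformed levels they held, with 477 higher and 10 lower in ESC-PGCLC, and 342 higher and 6 lower in pESC-PGCLC. After centring on the library medians 623 members were lower and 241 higher in ESC-PGCLC, and 583 lower and 204 higher in pESC-PGCLC. The count of 526 calls in ESC-PGCLC was 992 without ESC replicate 1, the higher of the ESC libraries, and 296 without ESC-PGCLC replicate 2, and the 364 calls in pESC-PGCLC were 228 without pESC replicate 1, 190 without pESC-PGCLC replicate 1 and 187 without pESC-PGCLC replicate 2.

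Some members were almost unmethylated in the lines and methylated in germ cells. In 99 members (36 L2, 41 MIR, 22 MLT) the ESC mean was under 10% and the E9.5 mean at least 50%. The pESC mean was under 10% too in 79 of them (29 L2, 33 MIR, 17 MLT). Over the 99 members the means were 6.31% in ESC, 6.97% in pESC, 67.9% at E9.5, 39.0% at E12.5, 48.6% in ESC-PGCLC and 41.4% in pESC-PGCLC. Those of ESC and E9.5 are bounded by the choice. A level of at least 50% in ESC and under 50% at E9.5 was found in 10 members, with means of 55.6% and 42.1%. These bounds are looser than those of the 99 members, so the counts cannot be set against each other. MLT1J:112-467 had 3.08% and 3.84% in ESC, 4.5% and 4.61% in pESC, 69.3% and 65.3% at E9.5, 43.5% and 49.2% at E12.5, 73.2% and 77.4% in ESC-PGCLC, and 51.5% and 49.5% in pESC-PGCLC. The 4 cell line libraries were below the other 8, and the rise on induction of ESC was 71.9 points (adjusted p = 7.45e-05).

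MLT1A0:37-138 rose most on induction. It had 25.5% and 25% in ESC, 22.9% and 29.6% in pESC, 100% and 96.7% at E9.5, 68.4% and 78.3% at E12.5, 100% in both ESC-PGCLC libraries, and 87.5% and 85.2% in pESC-PGCLC. The rise was 74.7 points from ESC (adjusted p = 7.45e-05) and 60.1 points from pESC (adjusted p = 0.000168). MIRb:45-268 went from 4.43% and 6.94% in ESC to 64.9% and 84.4% in ESC-PGCLC (69.0 points, adjusted p = 0.000404), MIRb:151-241 from 3.39% and 10.2% in pESC to 70.6% and 61.7% in pESC-PGCLC (59.4 points, adjusted p = 0.00361), and L2:2757-2879 from 19.5% and 13.2% to 77.6% and 71.2% (58.1 points, adjusted p = 0.00304). The rises of these members and of MLT1J:112-467 kept their calls in the 10 alternatives run for each.

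The 3 largest falls on induction of each line were as follows. L2b:3320-3375 went from 91.3% and 75.0% in ESC to 52.9% and 33.3% in ESC-PGCLC (−40.0 points, adjusted p = 0.0333), MIRc:78-193 from 50.5% and 44.5% to 23.8% and 9.17% (−31.0 points, adjusted p = 0.0135), and MLT1B:165-388 from 27.0% and 30.8% to 0% in both (−28.9 points, adjusted p = 8.17e-05). In pESC-PGCLC MIR1_Amn:23-143 went from 70.8% and 65.0% to 35.6% and 40.5% (−29.9 points, adjusted p = 0.00715), MIR3:1-184 from 74.2% and 67.1% to 41.6% and 40.7% (−29.5 points, adjusted p = 0.00239), and MIRb:105-208 from 56.0% and 61.7% to 33.3% and 27.4% (−28.5 points, adjusted p = 0.0393). MIR1_Amn:23-143 also had 33.0% and 38.0% at E9.5, against 33.4% and 37.1% at E12.5, so its 4 cell line libraries were the high ones. The calls of L2b:3320-3375 and MIRb:105-208 were lost in 4 and 6 of 10 alternatives. Whether the change differed between the origins was tested as an interaction, which called 2 members, MLT1A0:37-138 and MLT1B:165-388, where 0.0365% of all features and 0.0327% of repeat features were called. Leaving out each library in turn gave 0 to 9 calls, with 9 without ESC-PGCLC replicate 1, 1 without ESC-PGCLC replicate 2 and 0 without each of the other 6.

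**Figure D5:**
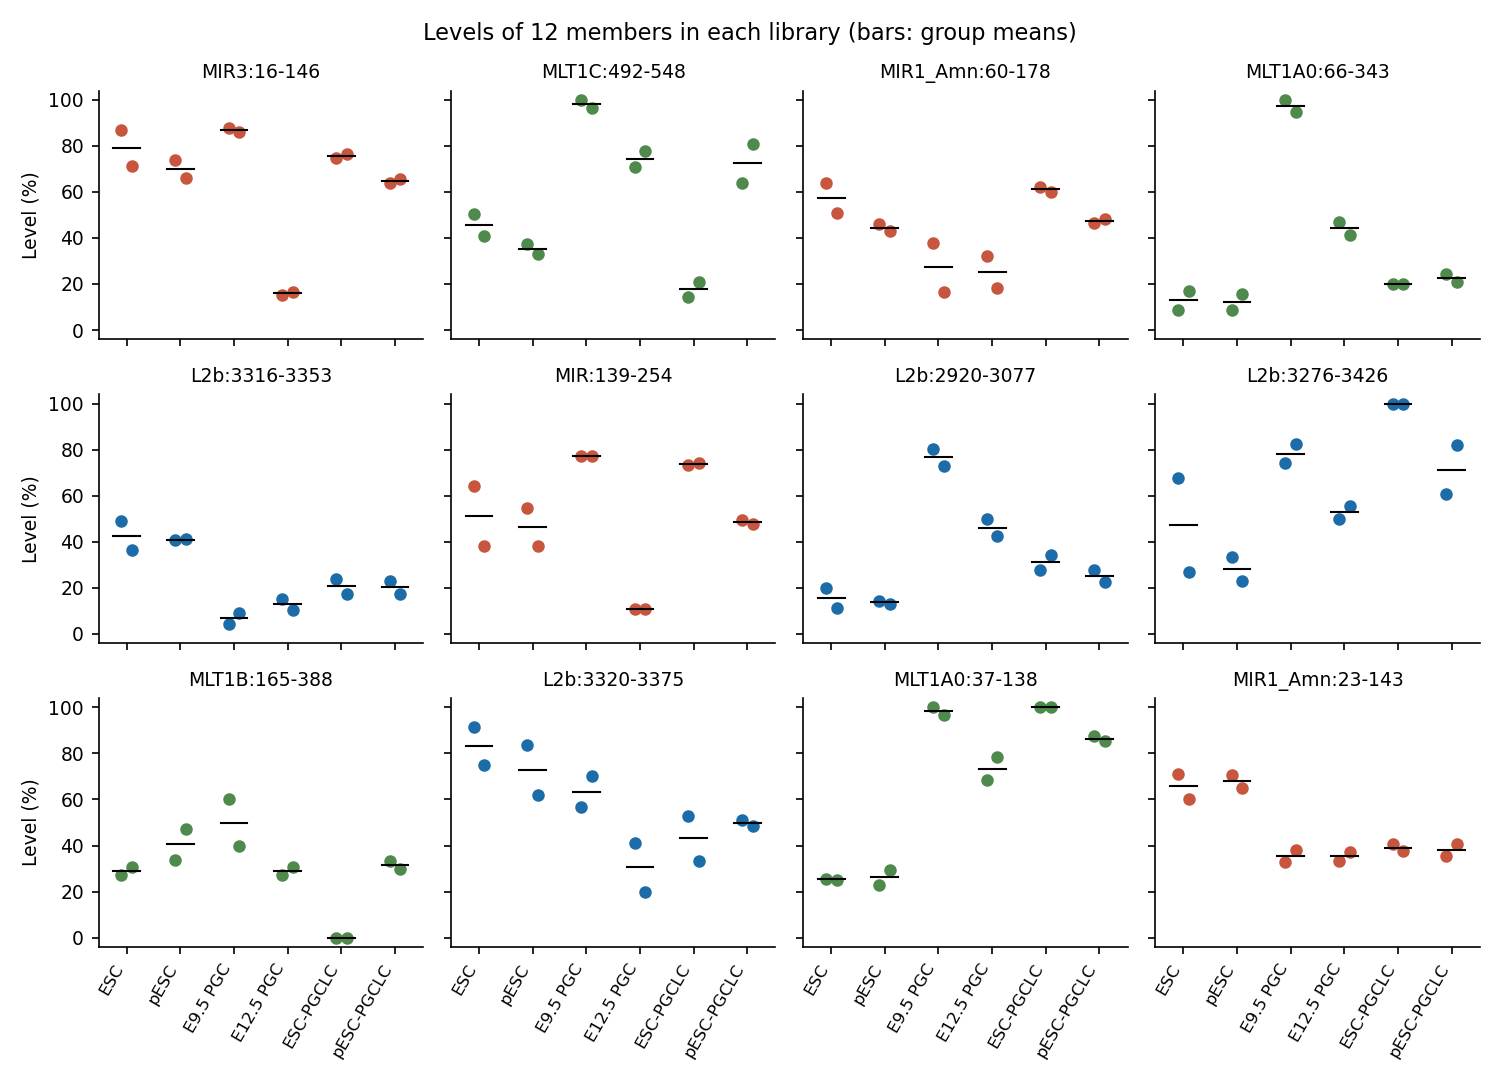
Methylation level in percent of 12 members in each of the 12 libraries (points, blue for L2, red for MIR and green for MLT), with bars at the group means; shown are the largest called fall and rise of each comparison, as named in the text. MIR3:16-146 and MIR:139-254 are lowest at E12.5, MLT1A0:37-138 is low in the cell lines, MIR1_Amn:23-143 is high in them, and MLT1B:165-388 is at 0% in both ESC-PGCLC libraries.

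Replicates limited what single members could show. Differences over 10 points between replicates were found in 52.8% of members in ESC, 18.4% in pESC and 8.96% to 12.3% in the other groups, and 767 members (195 L2, 402 MIR, 170 MLT) stayed within 10 points in the 6 groups. The 3 least repeatable members were L2b:3320-3378, with a mean replicate difference of 36.0 points, MLT1D:51-500, with 29.9, and MIRb:22-173, with 28.2. L2b:3320-3378 read 6.67% and 78.1% in ESC, and MLT1D:51-500 read 52.3% and 100% at E9.5, against 100% and 32.1% at E12.5. Exact levels of 0% were seen in 15 to 40 members per library and of 100% in 0 to 31, most of the latter at E9.5.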

How the data were processed

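RRBS levels of 12 mouse libraries were used, 2 in each of 6 groups taken from the sample titles. The deposited files gave 1 level per feature as a fraction, methylated CG calls over all CG calls, which is printed here in percent. Per the labels and the study's methods, the authors aligned reads with Bismark 0.16.3 and Bowtie2 to mm10, kept unique best alignments, treated identical reads at 1 place as duplicates and corrected for non-conversion. A coverage minimum was not given in the sources used here. Because no read counts accompany the levels, depth is unknown, no interval was computed, and well and poorly covered members weigh alike. RRBS reads only CpG sites near MspI cuts, so a member stands for few sites of its element.

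Features with a level in each library of a fit were tested with limma 3.58.1 (R 4.3.3) after a log odds transformation, log2((level + 0.01)/(1 − level + 0.01)), and p-values were adjusted by Benjamini-Hochberg across the whole fit. The fits held the 4 ESC and pESC libraries, the 8 PGC and PGCLC libraries, or the 8 cell line and PGCLC libraries. Calls needed an adjusted p under 0.05 and 10 points between group means (for the interaction, 10 points between the differences). The limma code was checked on simulated data. The study names 2 biological replicates, and p-values measure the spread between these libraries. Python 3.11.15 gave set means, with pandas 2.3.3 and numpy 2.4.6, and fragments were read with pysam 0.24.0. Alternatives were an offset of 0.1, untransformed levels, centring on the library median, a joint fit of 12 libraries, a replicate block, no size threshold and leaving out each library.

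Named members were the 5 highest and 5 lowest of each set, the 3 largest called rises and falls in each comparison (the 3 smallest p where none was called) and the 3 least repeatable. The 2 interaction calls were taken in the same way. The members and lists were chosen with earlier results of these data known.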

Additional observations from a re-analysis of the deposited data

Results flagged for a closer look

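The change on induction differed between the origins at 2 members by the interaction test in limma (0.0365% of all features and 0.0327% of repeat features were called), both MLT. At MLT1A0:37-138 the rise was 74.7 points from ESC and 60.1 points from pESC, a difference of −14.6 points (adjusted p = 0.0247), with both ESC-PGCLC libraries at 100%. At MLT1B:165-388 ESC-PGCLC lay 28.9 points below ESC with both libraries at 0%, while pESC read 33.8% and 47.2% and pESC-PGCLC 33.3% and 30%, and the difference of the changes was 20.1 points (adjusted p = 0.0266). Of 14 alternatives, 10 lost the first call and 9 the second, offset 0.1 and untransformed levels among them. At an unadjusted p under 0.05 there were 96 members (3.98%). That share is below the one this threshold passes when nothing differs, so it is not read as a result. Causes were not tested.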

How the results depend on the processing

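Depth is unknown, so members with few reads could not be set apart, and 2 libraries per group leave single members with wide errors. The order MLT, L2, MIR held in 12 of 12 libraries under the alternatives run for it. Centring on the library median gave 851 calls between E12.5 and E9.5, 339 and 557 for ESC-PGCLC and pESC-PGCLC against E9.5, and 307 and 58 against E12.5. It reversed the main direction on induction, with 864 calls from ESC (L2 248, MIR 376, MLT 240) and 787 from pESC (L2 212, MIR 357, MLT 218). Before centring, the median over all features was 12.4% in ESC and 24.8% in ESC-PGCLC. It was 13.3% in pESC and 23.1% in pESC-PGCLC. The median change of single features was 1.36 points from ESC and 0.587 points from pESC. The mean over members rose by 10.6 points from ESC and 7.26 points from pESC. The cause of the reversal was not tested. A joint fit of 12 libraries gave 738 calls for ESC-PGCLC against E9.5, 407 against E12.5, 42 for pESC-PGCLC against E12.5 and 1 for the interaction. Between the PGCLCs an offset of 0.1 gave 55 calls and untransformed levels 79, with the MLT calls (17 and 18) then mostly lower in pESC-PGCLC, and both settings gave 0 interaction calls. Leaving out each library in turn gave 0 to 8 calls between the lines, 1758 to 1793 between E12.5 and E9.5, 974 to 1008 and 1358 to 1423 for ESC-PGCLC and pESC-PGCLC against E9.5, 690 to 789 and 1 to 90 against E12.5, 0 to 18 between the PGCLCs, 296 to 992 on induction of ESC, 187 to 278 on induction of pESC and 0 to 9 for the interaction.

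The replicate numbers carry no label of a shared culture or litter, and with 2 numbers the libraries were not treated as pairs. Deviations of same-numbered libraries correlated at 0.43 between ESC and pESC, where replicate 1 was the higher library in both, and at −0.06 to 0.14 otherwise. With a replicate block the count of calls between the PGCLCs was 1 instead of 3, and the other counts stayed within 1.5 times, for example 1913 between E12.5 and E9.5 and 253 for pESC-PGCLC against E12.5.

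Mean differences kept their sign except between the lines, where leaving out a library gave −5.77 to 3.99 points. E12.5 against E9.5 was −23.9 points by the median over members, −16.3 in members with replicates within 10 points and −23.9 in members reaching 10% in a library, an alternative chosen after seeing the data. In the same order ESC-PGCLC against E9.5 was −12.2, −9.04 and −12.4 points, pESC-PGCLC against E9.5 −16.9, −12.1 and −16.9, ESC-PGCLC against E12.5 11.8, 7.25 and 11.5, and pESC-PGCLC against E12.5 7.07, 4.205 and 7.01. pESC-PGCLC against ESC-PGCLC was −4.72 by the median and −3.04 in the members with replicates within 10 points. The members with replicates within 10 points include the 129 that were under 10% in the 12 libraries and have little room to differ between groups.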

Other observations

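Of the 1739 members with at least 50% at E9.5, 5 had an E12.5 mean of at least 90% of the E9.5 mean, and they were picked out after their values were seen. MLT1E3:310-572 had E9.5 levels of 94% and 89.7% and E12.5 levels of 81.8% and 88%. MLT1C2:179-461 had 80% and 100%, then 100% and 62.5%. MIR:99-191 had 69.5% and 69.9%, then 55.1% and 100%, with 8.06% to 19.1% in the cell lines. L2:2198-2269 had 51.3% and 58.8%, then 49.3% and 53.7%, and L2c:3272-3414 had 48.1% and 76.5%, then 67.7% and 47.5%. In MLT1C2:179-461, MIR:99-191 and L2c:3272-3414 the replicates of a stage differed widely. Members chosen in this way cannot fall by more than 10 points, so that none of the 5 was called lower follows from the choice. MLT1E3:310-572 had an adjusted p of 0.0427 in limma.

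Members with a level in 11 libraries did not keep the order of the sets. At E9.5 they averaged 56.5% in L2 (26 members), 58.05% in MIR (56) and 65.6% in MLT (33), and at E12.5 33.5% (30), 39.1% (58) and 41.1% (40), so L2 was below MIR at both stages. Over members with a level in 1 to 11 libraries the E9.5 means were 60.7%, 58.1% and 64.7%, and the E12.5 means 35.6%, 37.5% and 44.8%, with L2 below MIR at E12.5. Different members enter at each stage, and no test was made.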
